A study of Mus musculus with 11 samples.

Results

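The 9 genes described here encode the classical Fc receptors of the mouse and their relatives. They are *Fcgr1*, *Fcgr2b*, *Fcgr3*, *Fcgr4*, *Fcer1g*, *Fcrla*, *Fcgrt*, *Fcmr* and *Pigr*. They were taken by name, as members of this receptor family, out of 19058 genes in a table of lacrimal gland RNA. Whole lacrimal glands of male NOD mice were sequenced, with 1 library per mouse, from 3 wild-type (WT) mice, 5 *Tlr7* KO mice and 3 *Ifnar1* KO mice. The NOD strain spontaneously develops autoimmune inflammation of the lacrimal gland in males. WT mice were NOD/ShiLtJ. *Tlr7* KO mice descended from NOD embryos injected with Cas9 and a guide RNA, backcrossed to NOD for 1 generation, and all carried the same 2 base-pair deletion in *Tlr7*, which encodes an endosomal sensor of single-stranded RNA. *Ifnar1* KO mice were NOD mice homozygous for the em16 allele of *Ifnar1*, which encodes a chain of the type I interferon receptor. WT and *Tlr7* KO mice were 20 to 22 weeks old, and the age of the *Ifnar1* KO mice is not given in the sources used here. The labels name no treatment. Each knockout is a single mutant line present in every cell of the animal, and the authors left out a further *Ifnar1* KO mouse because it grouped with WT and had inflammation like that of WT. The 3 remaining *Ifnar1* KO mice were therefore selected in part by their inflammation.

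Fc receptors bind the constant part of antibodies. FcγRI, FcγRIII and FcγRIV, encoded by *Fcgr1*, *Fcgr3* and *Fcgr4*, bind IgG on macrophages, neutrophils and NK cells and signal through the common γ chain encoded by *Fcer1g*, whose tail holds an activating motif that recruits the kinase Syk. FcγRIIb, encoded by *Fcgr2b*, carries an inhibitory motif and restrains B cells and myeloid cells that meet immune complexes. *Fcrla* encodes an Fc receptor-like protein kept inside B cells, and *Fcmr* encodes the IgM receptor of lymphocytes. *Fcgrt* encodes the neonatal Fc receptor, which pairs with β2-microglobulin and saves IgG from degradation, and *Pigr* encodes the polymeric immunoglobulin receptor, with which gland epithelium carries dimeric IgA and pentameric IgM into secretions such as tears. NOD mice are known for an *Fcgr1* allele that shortens the cytoplasmic tail and for a variant *Fcgr2b* promoter, and the reads were assigned to a reference made from another strain, so an effect of strain differences on these levels was not tested.

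Of these genes, 5 lie close together on chromosome 1 of the mouse genome (GRCm38, GENCODE M21 annotation). From low to high coordinates these are *Fcrla* (170917576 to 170927583, minus strand), *Fcgr2b* (170958617 to 170976547, minus), *Fcgr4* (171018920 to 171029761, plus), *Fcgr3* (171051174 to 171064935, minus) and *Fcer1g* (171229572 to 171234365, minus). At lower coordinates of the same chromosome, *Pigr* (130826684 to 130852249) and *Fcmr* (130865669 to 130880791) are neighbours on the plus strand, next to *Fcamr* (130800902 to 130814740), which encodes another receptor for IgA and IgM. *Fcgr1* is on chromosome 3 (96282909 to 96293969, minus) and *Fcgrt* on chromosome 7 (45092990 to 45103851, minus). *Fcgr2b* and *Fcgr3* have closely similar extracellular parts, and 233 of the 1733 different 31-base words in *Fcgr3* transcripts, or 13.4%, also occur in *Fcgr2b* transcripts. For *Fcgr2b* that share was 4.15%, and no other pair of the 9 genes shared any. Reads from the shared stretch could be split between these 2 genes by estimation. An antisense gene overlaps 2.68% of the exon bases of *Fcgr2b*, and no other member's exons overlap those of another gene.

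As examples, promoters of 3 of the 9 genes are printed from RefSeq (GRCm38.p6), each running from 250 bases before the annotated start to 50 after it, 5′ to 3′ on the gene's strand. All 9 genes were matched, with a second start for *Fcgr3*. They come from the reference strain, not from NOD. Capitals mark matches, on either strand, to TTCNNNGAA (the GAS element of interferon-responsive promoters), GAAA followed by any 2 bases and GAAA (the core of the ISRE element) and GAGGAA (the core bound by the myeloid and B cell factor PU.1, shown as TTCCTC where it lies on the other strand).
Fcgr1, chr3:96293920-96294219, minus strand: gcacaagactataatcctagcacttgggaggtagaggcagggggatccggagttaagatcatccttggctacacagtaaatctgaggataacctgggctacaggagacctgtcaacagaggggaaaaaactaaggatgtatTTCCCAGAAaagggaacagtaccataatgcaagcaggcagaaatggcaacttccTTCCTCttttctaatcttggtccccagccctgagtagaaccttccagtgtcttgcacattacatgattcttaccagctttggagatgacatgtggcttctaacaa
Fcgr4, chr1:171018676-171018975, plus strand: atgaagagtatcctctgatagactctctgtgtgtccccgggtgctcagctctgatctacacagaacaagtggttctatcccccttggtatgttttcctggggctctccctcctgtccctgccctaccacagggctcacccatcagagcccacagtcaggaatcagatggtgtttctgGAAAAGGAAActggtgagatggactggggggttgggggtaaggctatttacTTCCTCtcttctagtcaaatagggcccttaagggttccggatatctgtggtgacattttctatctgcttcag
Pigr, chr1:130826434-130826733, plus strand: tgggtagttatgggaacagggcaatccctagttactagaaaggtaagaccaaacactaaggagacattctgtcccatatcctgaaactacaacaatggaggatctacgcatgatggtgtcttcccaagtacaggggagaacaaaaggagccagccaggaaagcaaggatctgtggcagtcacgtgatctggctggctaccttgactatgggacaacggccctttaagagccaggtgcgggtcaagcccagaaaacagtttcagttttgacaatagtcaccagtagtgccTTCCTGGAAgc
In *Fcgr1*, TTCCCAGAA begins at -109 from the start, and a PU.1 core begins at -55. In *Fcgr4*, GAAAAGGAAA begins at -73 and a PU.1 core at -22. The window of *Pigr* holds TTCCTGGAA, beginning at 39 after the start, and neither of the other elements. PU.1 cores were further found in the windows of *Fcgr3*, *Fcrla* and *Fcmr*, an ISRE core in that of *Fcrla*, and no match to these letters in those of *Fcgr2b*, *Fcer1g* and *Fcgrt*. Over all 32851 windows of the same length, 8.30% held the GAS letters, 3.44% the ISRE core and 28.3% the PU.1 core, and no match overlapped another in the printed sequences. The printed windows include every GAS match found in the 9 genes, so they do not represent the 9. The windows of *Fcrla* and *Fcmr*, which had the largest differences from WT, are not printed. A match describes the letters only.

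The libraries held between 20512315 and 28814250 estimated counts assigned to genes. Levels are given as CPM, each gene's count relative to the TMM-scaled total of its library, where 3 counts correspond to 0.0820 to 0.158 CPM across the mice, and this limit covers counting error only. Labels name separate mice but not litters, cages or days, so p-values measure the spread between these mice. All 5 gland epithelial markers were abundant in every group (summed level 520 to 790 CPM over all mice). WT 2 stood apart from WT 1 and WT 3. Its level of *Ptprc*, the pan-leukocyte gene, was 18.8 CPM against 66.2 and 56.9, its summed B cell markers 63.1 CPM against 219 and 188, and the highest *Tlr7* KO mouse had 19.7 CPM of *Ptprc*. The calls of the 9 genes and the number of list genes called are therefore also given without WT 2, while marker levels and ratios are given with all mice. *Tlr7* transcript was called lower in *Tlr7* KO (log2 fold change -1.62, SE 0.28, adjusted p = 0.00364) but also in *Ifnar1* KO (-2.10, SE 0.45, adjusted p = 0.0260), and *Ifnar1* transcript was still present in *Ifnar1* KO at 230 to 245 counts per mouse, so transcript levels do not check these labels. TMM scaling left a median log2 fold change near 0 over all genes tested. Scaling by library size alone moved that median to -0.54 in *Tlr7* KO and -0.31 in *Ifnar1* KO against WT and to 0.19 between the knockouts, with the share of called genes that were lower going from 53.2% to 97.2%, from 64.8% to 96.2% and from 51.6% to 30.6%. Every direction given below for the 9 genes was the same under all scalings, while the sizes changed.

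A gene was called when edgeR's quasi-likelihood test gave a Benjamini-Hochberg adjusted p under 0.05 over the 13937 genes with a summed WT count of at least 30, and all 9 genes passed that filter. Because the filter used WT counts only, a gene low in WT was not tested, whatever its level in a knockout. In *Tlr7* KO glands, 5 of the 9 were called lower than in WT and 1, *Pigr*, higher, where 17.4% of all genes tested were called lower and 15.3% higher. In *Ifnar1* KO glands, 8 were called lower than in WT and *Pigr* again higher, against 12.4% and 6.76% of all genes. The levels of *Tlr7* KO and WT mice did not overlap for 4 genes (*Fcgr3*, *Fcrla*, *Fcmr* and *Pigr*), as for 30.8% of all genes, and those of *Ifnar1* KO and WT mice did not overlap for any of the 9, as for 41.8% of all genes. Between the knockouts, *Fcer1g* alone was called lower in *Ifnar1* KO (0.926% of genes lower, 0.868% higher). Levels of the knockouts did not overlap for *Fcer1g*, *Fcgr1* and *Fcgr2b*, against 10.7% of all genes. For the 9 genes together the log2 fold change had a median of -0.89, -2.18 and -1.0 in these comparisons, and for all genes tested it was -0.037, -0.017 and -0.0011. Both comparisons with WT share the same 3 WT mice, so their values are set side by side and not counted as support for each other.

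**Figure D1:**
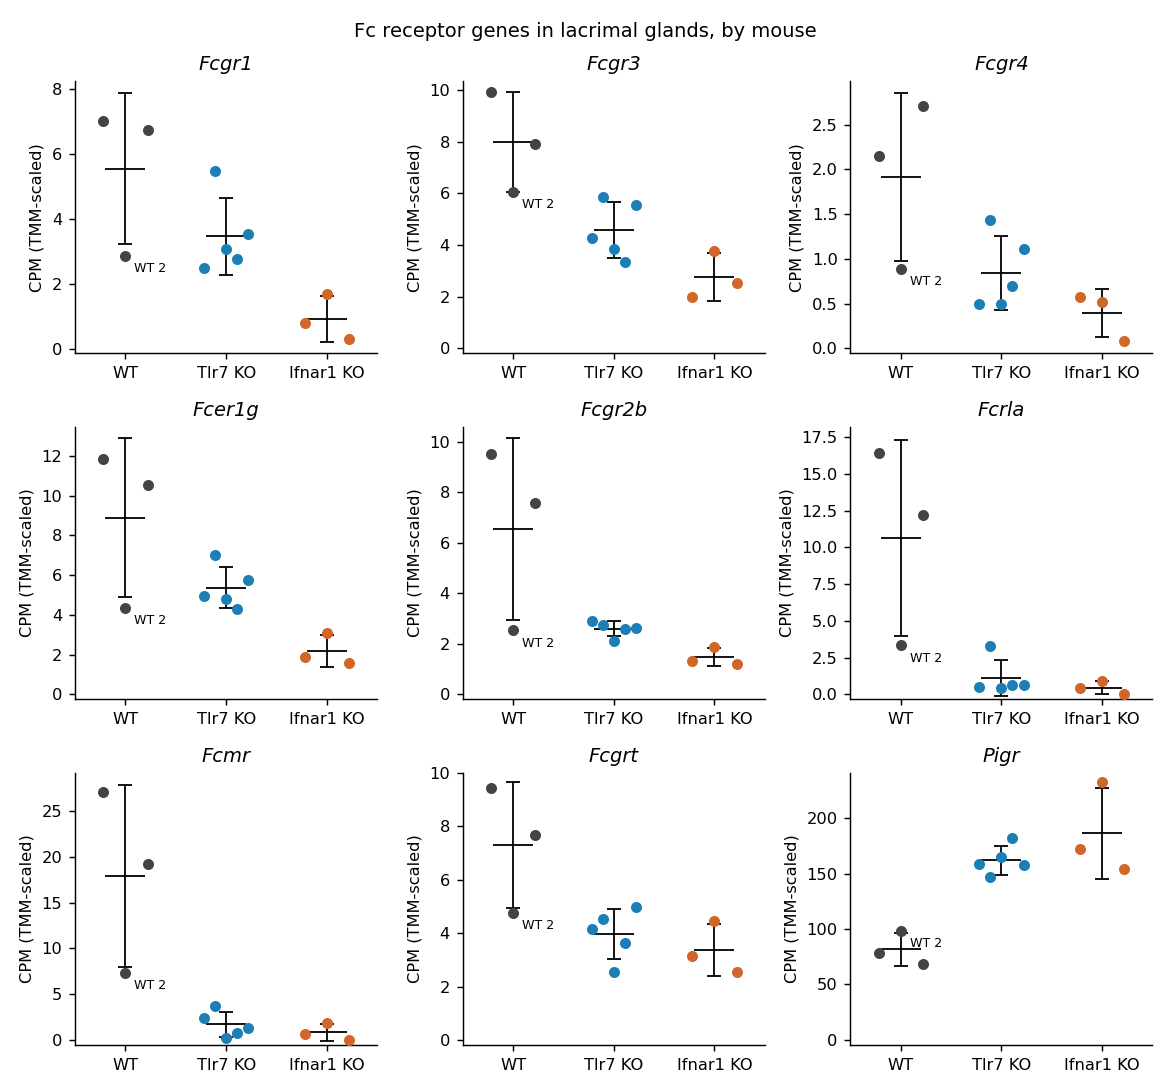
Levels of the 9 genes in CPM (linear vertical axes from 0) in each mouse, by group, with the mean and SD as bars (n = 3, 5 and 3). WT 2 is labelled and is the WT mouse nearest to the knockouts in all 9 panels, and *Pigr* is the only gene whose knockout mice all lie above WT.

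Among the activating receptors for IgG, *Fcgr1* encodes the high-affinity one. Its level was 7.01, 2.87 and 6.75 CPM in WT mice 1 to 3, 2.49, 5.48, 3.08, 2.76 and 3.54 CPM in *Tlr7* KO mice 1 to 5, and 0.783, 1.68 and 0.293 CPM in *Ifnar1* KO mice 1 to 3. The *Ifnar1* KO mice were below every mouse of the other groups, while *Tlr7* KO mice spanned the level of WT 2. Against WT, *Fcgr1* was 6.12-fold lower in *Ifnar1* KO (log2 fold change -2.61, SE 0.58, adjusted p = 0.0272, edgeR) and was not called in *Tlr7* KO (-0.69, SE 0.33, adjusted p = 0.130, 95% interval -1.42 to 0.04). Against *Tlr7* KO, the difference was -1.90 (95% interval -2.90 to -0.89, adjusted p = 0.0708) and was not called, and without *Ifnar1* KO 2 it was -2.64 (adjusted p = 0.00946).

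*Fcgr3* encodes the low-affinity receptor FcγRIII. It was at 9.95, 6.07 and 7.92 CPM in WT, at 4.28, 5.87, 3.84, 3.34 and 5.54 CPM in *Tlr7* KO and at 1.97, 3.77 and 2.51 CPM in *Ifnar1* KO. All WT mice were above all knockout mice, WT 2 by little, and the knockout groups overlapped. It was called lower in *Tlr7* KO, by 1.76-fold (-0.81, SE 0.22, adjusted p = 0.0192), and in *Ifnar1* KO, by 2.95-fold (-1.56, SE 0.29, adjusted p = 0.0230). Between the knockouts *Fcgr3* had -0.73 (95% interval -1.29 to -0.18, adjusted p = 0.186) and was not called.

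*Fcgr4* encodes FcγRIV, which binds IgG2b and IgG2c. It had the fewest counts of the 9 genes in WT, 63, 21 and 99, with 13, 33, 13, 17 and 21 in *Tlr7* KO and 17, 14 and 2 in *Ifnar1* KO. In CPM this was 2.15, 0.885 and 2.70 in WT, 0.497, 1.43, 0.494, 0.70 and 1.11 in *Tlr7* KO and 0.578, 0.523 and 0.0837 in *Ifnar1* KO. WT 2 lay within the *Tlr7* KO range, and Ifnar1 KO 3 was the lowest mouse. It was called lower in *Ifnar1* KO, by 4.86-fold (-2.28, SE 0.64, adjusted p = 0.0469), and in *Tlr7* KO it had -1.21 (SE 0.44, adjusted p = 0.0605) and was not called. The difference between the knockouts, -1.05 (95% interval -2.29 to 0.18, adjusted p = 0.378), was not called either.

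*Fcer1g*, the signalling chain shared by these receptors, was at 11.8, 4.34 and 10.5 CPM in WT, at 4.97, 7.0, 4.82, 4.32 and 5.75 CPM in *Tlr7* KO and at 1.91, 3.10 and 1.59 CPM in *Ifnar1* KO. Each *Ifnar1* KO mouse was below every other mouse, and WT 2 lay among the *Tlr7* KO mice. Against WT, *Fcer1g* was 4.13-fold lower in *Ifnar1* KO (-2.04, SE 0.42, adjusted p = 0.0248) and was not called in *Tlr7* KO (-0.74, SE 0.29, adjusted p = 0.0754). Against *Tlr7* KO it was 2.44-fold lower in *Ifnar1* KO (-1.29, SE 0.24, 95% interval -1.81 to -0.76, adjusted p = 0.0290). That call was lost without *Tlr7* KO 1 (adjusted p = 0.0703), *Tlr7* KO 3 (0.0594), *Tlr7* KO 5 (0.0712), *Ifnar1* KO 1 (0.115) or *Ifnar1* KO 3 (0.0945).

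The inhibitory receptor gene *Fcgr2b* was at 9.51, 2.53 and 7.60 CPM in WT, at 2.91, 2.74, 2.13, 2.59 and 2.64 CPM in *Tlr7* KO and at 1.33, 1.87 and 1.21 CPM in *Ifnar1* KO. WT 2 fell inside the narrow *Tlr7* KO range, and the *Ifnar1* KO mice were below all others. It was called lower in *Tlr7* KO, by 2.53-fold (-1.34, SE 0.34, adjusted p = 0.0155), and in *Ifnar1* KO, by 4.54-fold (-2.18, SE 0.48, adjusted p = 0.0265). Between the knockouts the difference was -0.82 (95% interval -1.26 to -0.39, adjusted p = 0.0708), not called.

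The balance of activating to inhibitory receptors was described as the log2 ratio of summed *Fcgr1*, *Fcgr3* and *Fcgr4* counts to *Fcgr2b* counts in each mouse, with no test. It was 1.01, 1.96 and 1.19 in WT, 1.32, 2.22, 1.80, 1.39 and 1.95 in *Tlr7* KO and 1.33, 1.68 and 1.25 in *Ifnar1* KO. The 3 groups overlapped, with means of 1.39 ± 0.50 (SD, n = 3), 1.74 ± 0.38 (SD, n = 5) and 1.42 ± 0.23 (SD, n = 3). In the second deposited table of counts the means were 0.64, 1.12 and 0.69, and why the tables differ was not tested. No group stood apart in this ratio, to which WT 2 gave the highest WT value.

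The largest differences from WT among the 9 genes were those of the B-lineage genes *Fcrla* and *Fcmr*. *Fcrla* was at 16.4, 3.33 and 12.2 CPM in WT (480, 79 and 448 counts), at 0.497, 3.26, 0.456, 0.618 and 0.633 CPM in *Tlr7* KO (13, 75, 12, 15 and 12 counts) and at 0.408, 0.896 and 0 CPM in *Ifnar1* KO (12, 24 and 0 counts). *Tlr7* KO 2 was nearly as high as WT 2, and *Ifnar1* KO 3 had no count, which allows up to 0.126 CPM. *Fcrla* was 9.84-fold lower than WT in *Tlr7* KO (-3.30, SE 0.68, adjusted p = 0.00713) and 24.4-fold lower in *Ifnar1* KO (-4.61, SE 0.89, adjusted p = 0.0235). Single mice moved the size of *Fcrla* changes, to -4.29 without *Tlr7* KO 2 and, in the other comparison, to -5.60 without *Ifnar1* KO 2.

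*Fcmr*, the IgM receptor gene, was at 27.0, 7.34 and 19.3 CPM in WT (791, 174 and 705 counts), at 2.45, 3.69, 0.266, 0.782 and 1.27 CPM in *Tlr7* KO (64, 85, 7, 19 and 24 counts) and at 0.681, 1.83 and 0 CPM in *Ifnar1* KO (20, 49 and 0 counts). WT mice were above all knockout mice, and the knockout groups overlapped. It was 10.6-fold lower in *Tlr7* KO (-3.41, SE 0.62, adjusted p = 0.00439) and 21.4-fold lower in *Ifnar1* KO (-4.42, SE 0.87, adjusted p = 0.0235). The value of *Fcmr* in *Ifnar1* KO was -5.62 without *Ifnar1* KO 2 and -3.88 without *Ifnar1* KO 3. Between the knockouts *Fcrla* (-1.30, 95% interval -3.33 to 0.74) and *Fcmr* (-0.997, 95% interval -3.04 to 1.05) were not called, and the intervals are too wide to tell equal from unequal levels. Leaving out a mouse moved *Fcrla* from -2.31 (without *Ifnar1* KO 2) to -0.31 (without *Tlr7* KO 2) and *Fcmr* from -2.22 (without *Ifnar1* KO 2) to -0.44 (without *Ifnar1* KO 3).

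The transport receptors moved in opposite directions. *Fcgrt* was at 9.44, 4.76 and 7.68 CPM in WT, at 4.17, 4.52, 2.54, 3.62 and 4.96 CPM in *Tlr7* KO and at 3.13, 4.44 and 2.55 CPM in *Ifnar1* KO. WT 2 lay within the *Tlr7* KO range and just above the highest *Ifnar1* KO mouse. It was called 1.85-fold lower in *Tlr7* KO (-0.89, SE 0.25, adjusted p = 0.0236) and 2.20-fold lower in *Ifnar1* KO (-1.14, SE 0.30, adjusted p = 0.0410).

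*Pigr* was at 78.0, 98.3 and 68.7 CPM in WT, at 158, 147, 165, 183 and 158 CPM in *Tlr7* KO and at 172, 233 and 154 CPM in *Ifnar1* KO. The lowest knockout mouse was above the highest WT mouse. *Pigr* was 1.98-fold higher in *Tlr7* KO (0.99, SE 0.13, adjusted p = 0.00124) and 2.25-fold higher in *Ifnar1* KO (1.17, SE 0.20, adjusted p = 0.0225), with no called difference between the knockouts for *Pigr* (0.20, 95% interval -0.09 to 0.49) or *Fcgrt* (-0.23, 95% interval -0.75 to 0.30). On chromosome 1 its neighbour *Fcamr* was also higher, with 1.15 (adjusted p = 0.00179) in *Tlr7* KO and 1.12 in *Ifnar1* KO (adjusted p = 0.0207), while *Fcmr*, on its other side, was lower.

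**Figure D2:**
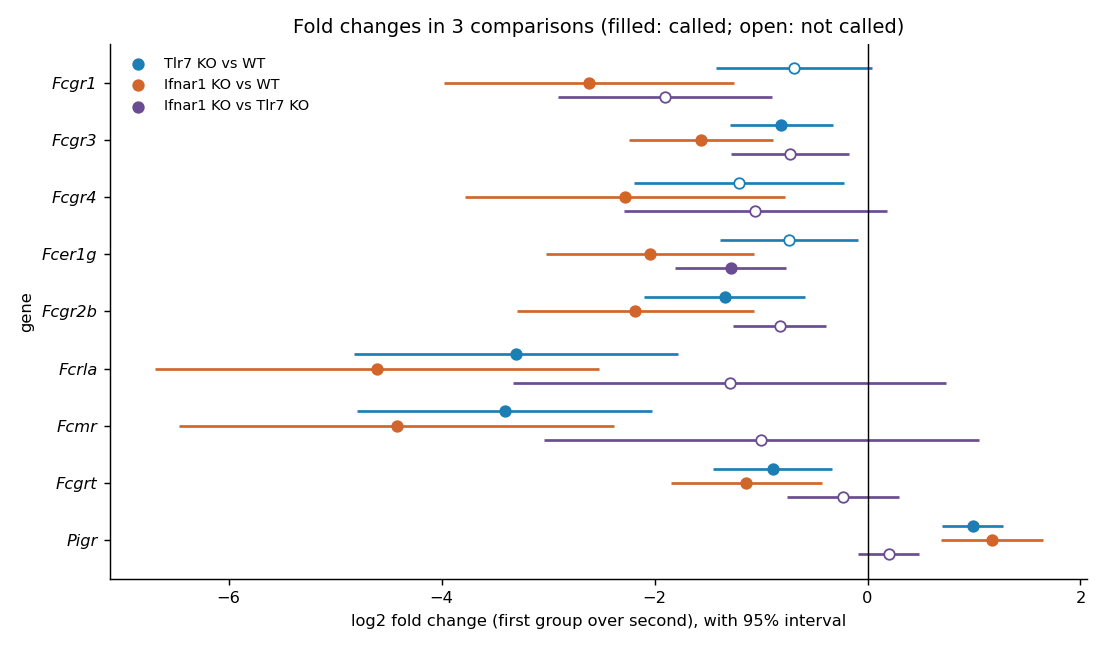
Log2 fold changes of the 9 genes (horizontal axis, first group over second) with 95% intervals in the 3 comparisons, filled where called and open where not. *Pigr* lies to the right of 0 in both comparisons with WT, near 1, and *Fcrla* and *Fcmr* lie between -3.30 and -4.61.

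Levels per kilobase of exon (RPKM) allow the genes to be ordered within a group. Length here is the union of the exons of all annotated transcripts, and the place of a gene depends on it. It was 5790 bases for *Fcgr2b*, 2589 for *Fcgr1* and 1256 for *Fcgr4*. By mean CPM in WT, *Fcgr2b* (6.54) was above *Fcgr1* (5.54) and *Fcgr4* (1.91). In WT the order of mean RPKM was *Pigr* (20.3 ± 3.77 SD, n = 3), *Fcmr* (10.3 ± 5.72), *Fcer1g* (10.2 ± 4.57), *Fcrla* (6.11 ± 3.83), *Fcgr3* (4.60 ± 1.12), *Fcgrt* (3.47 ± 1.12), *Fcgr1* (2.14 ± 0.90), *Fcgr4* (1.52 ± 0.74) and *Fcgr2b* (1.13 ± 0.62). Each neighbouring pair below *Pigr* overlapped between mice. In *Tlr7* KO *Pigr* (40.3 ± 3.25, n = 5) was followed by *Fcer1g* (6.15 ± 1.19) and *Fcgr3* (2.63 ± 0.63). *Pigr* and *Fcer1g* each lay apart from the gene that followed, while *Fcgr3* and all genes after it overlapped with their neighbours. *Fcmr* was there at 0.974 ± 0.80, behind *Fcgrt* and *Fcgr1*, and in *Ifnar1* KO at 0.482 ± 0.53. In *Ifnar1* KO *Pigr* (46.3 ± 10.2, n = 3) again led, before *Fcer1g* (2.52 ± 0.91), and *Fcgr2b* (0.254 ± 0.06) and *Fcrla* (0.249 ± 0.26) were last and overlapped.

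Which mice entered the fits changed several calls. Without WT 2, all 9 genes were called in *Tlr7* KO (8 lower, 1 higher, adjusted p between 0.000136 and 0.0121), with 25.6% of genes tested called lower and 23.3% higher. In *Ifnar1* KO all 9 were called as well (8 lower, 1 higher, adjusted p between 0.00249 and 0.0150), with 20.8% lower and 13.6% higher. *Fcgr1*, *Fcgr4* and *Fcer1g* then had -0.998, -1.55 and -1.06 in *Tlr7* KO. Without WT 1 or without WT 3, 3 genes remained called in *Tlr7* KO, which were *Fcrla*, *Fcmr* and *Pigr* both times, while calls over all genes went from 4564 to 2735 and 2601. Leaving out *Tlr7* KO 4 lost the call of *Fcgrt* (adjusted p = 0.0529), and leaving out *Tlr7* KO 2 added *Fcgr1* (0.0444) and *Fcgr4* (0.0314). In the comparison of *Ifnar1* KO with WT, when WT 1, WT 3 or either of *Ifnar1* KO 1 and 3 was left out, edgeR called 0 of the 9 genes, with adjusted p between 0.0676 and 0.143, although 9 of 9 kept an unadjusted p under 0.05 each time. In the same 4 fits edgeR called 13, 103, 0 and 0 of all genes tested, and 3642, 3565, 4383 and 3778 genes had an unadjusted p under 0.05. On all mice DESeq2 called 9 of the 9 and 3356 of all 13937 genes. Without *Ifnar1* KO 2, *Fcgr4* alone lost its call (adjusted p = 0.0866), *Fcgr1* had -3.35 against WT, and between the knockouts *Fcgr1* (0.00946), *Fcgr2b* (0.0186), *Fcgr3* (0.0401) and *Fcer1g* (0.00417) were then called lower in *Ifnar1* KO. Calls over all genes between the knockouts rose as well in that fit, from 250 to 877.

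**Figure D3:**
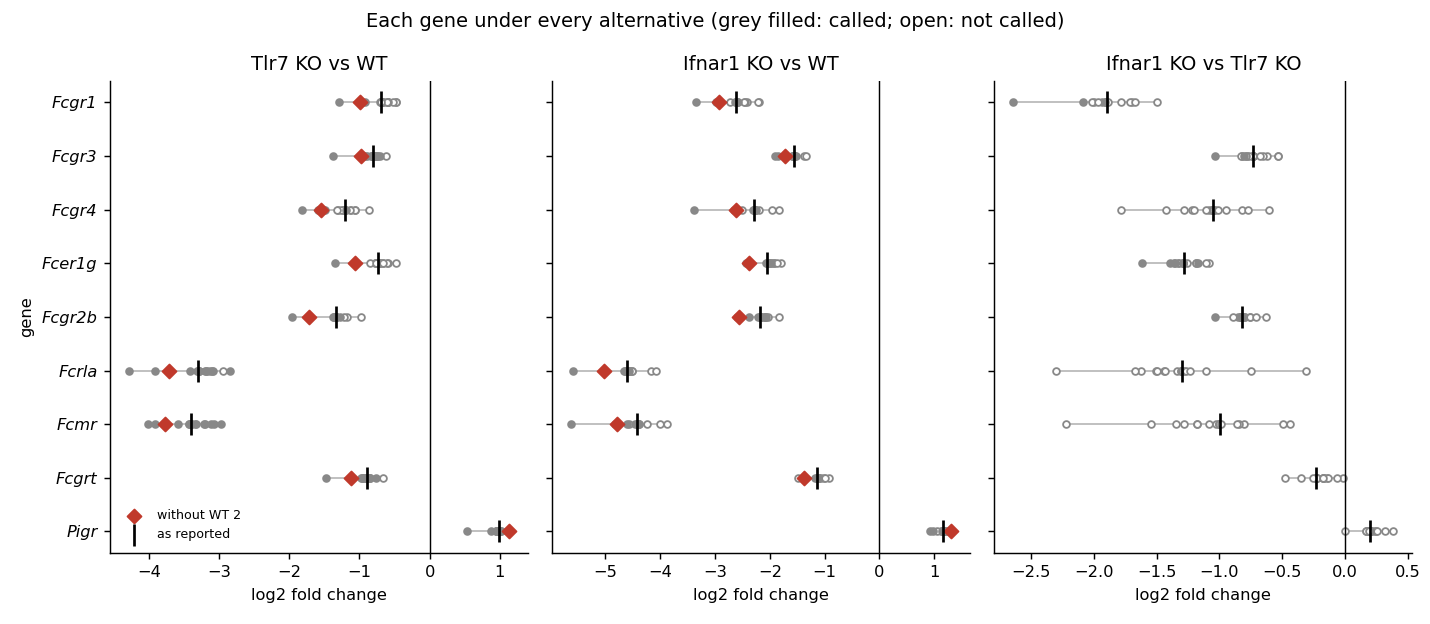
Log2 fold change of each gene (horizontal axis) in each comparison (panels) as reported (black line), without WT 2 (red diamond) and under every other alternative (grey, filled where called). No point of a gene lies on the other side of 0 from its reported value.

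Many markers of leukocytes were lower in the knockouts than in WT, as were the estimates of 8 of the 9 genes, while *Pigr* was higher. In bulk tissue, fewer cells of a type and less RNA per cell cannot be told apart. The 6 B cell markers, among them *Cd79a* and *Ms4a1*, were all called lower in *Tlr7* KO (median log2 fold change -3.26) and all in *Ifnar1* KO (-4.19), and their summed level ran from 63.1 to 219 CPM in WT, 5.35 to 39.2 CPM in *Tlr7* KO and 2.09 to 16.2 CPM in *Ifnar1* KO. Of 7 macrophage and monocyte markers, 4 were called lower in each (medians -0.51 and -1.12), with sums of 226 to 400, 179 to 213 and 59.7 to 163 CPM. T cell markers (4 of 5 lower in each, sums 19.5 to 60.2, 4.90 to 22.8 and 1.09 to 11 CPM) and NK markers (1 and 2 of 2 lower, sums 1.18 to 2.76, 0.268 to 1.06 and 0 to 0.224 CPM) went the same way. *Ptprc* had -2.31 and -3.38, and its level was 18.8 to 66.2, 5.13 to 19.7 and 1.47 to 8.55 CPM. *Ifnar1* KO 2 was the highest of its group in *Ptprc* (8.55 CPM against 3.85 and 1.47) and in summed B cell markers (16.2 CPM against 8.0 and 2.09).

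Of the neutrophil markers, 2 were tested and not called in any comparison (sums 0.717 to 4.38, 0.956 to 2.0 and 0.377 to 1.23 CPM), nor were the 4 mast cell markers (sums 2.28 to 6.26, 2.39 to 6.02 and 3.77 to 5.19 CPM). Of 3 endothelial markers, 2 were lower in each knockout and 1, *Kdr*, was higher in *Tlr7* KO (sums 11.6 to 22.6, 8.02 to 12.3 and 4.90 to 8.25 CPM). Of 5 epithelial markers, *Krt8* and *Aqp5* were higher in *Tlr7* KO and none was called in *Ifnar1* KO (sums 520 to 655, 693 to 790 and 708 to 739 CPM). No marker was at 0 in every mouse of a group, and between the knockouts none of the markers tested was called. The part of any of these cells in the levels of the 9 genes was not tested.

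Counts relative to marker counts were added after the values had been seen and are given with no test. For every 100 counts of the 6 B cell markers there were 12.3, 11.6 and 10.2 counts of *Fcmr* in WT mice, a mean of 11.4 ± 1.07 (SD, n = 3), against 9.36 ± 3.74 (n = 5) in *Tlr7* KO and 6.59 ± 5.87 (n = 3) in *Ifnar1* KO. *Fcrla* had 6.42 ± 1.10, 6.14 ± 2.30 and 3.54 ± 3.07. Both ratios overlapped between all groups, and WT 2 was not apart from WT 1 and WT 3 in that of *Fcmr*. *Fcgr2b* differed in this respect: it had 4.12 ± 0.18 counts per 100 B cell marker counts in WT, 22 ± 11.9 in *Tlr7* KO and 28.7 ± 25.5 in *Ifnar1* KO, and WT did not overlap with either knockout group. Per 100 counts of the 7 macrophage markers, *Fcgr2b* had 2.02 ± 0.78, 1.34 ± 0.15 and 1.60 ± 0.44, and these groups overlapped.

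For every 100 counts of the 7 macrophage markers there were 2.80 ± 0.82, 2.74 ± 0.34 and 2.29 ± 0.38 counts of *Fcer1g* and 2.61 ± 0.11, 2.32 ± 0.38 and 2.97 ± 1.07 counts of *Fcgr3* in WT, *Tlr7* KO and *Ifnar1* KO mice, and the groups overlapped. *Fcgr1* had 1.76 ± 0.50 in WT and 1.76 ± 0.48 in *Tlr7* KO but 0.824 ± 0.29 in *Ifnar1* KO, where the highest mouse (1.03) was below the lowest of the others (1.27). The marker sum weighs abundant genes most. *Lyz2* had the highest mean of the 7, at 199, 134 and 65.9 CPM, followed by *C1qa* at 64.9, 27.4 and 13.3 CPM. Ratios to single markers were not computed. *Pigr* had 13.7 ± 2.20 counts per 100 epithelial marker counts in WT, 22.1 ± 1.92 in *Tlr7* KO and 25.7 ± 5.25 in *Ifnar1* KO, with every knockout mouse above every WT mouse. Relative to these genes the *Pigr* level did not overlap between WT and either knockout, and the cause was not tested.

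**Figure D4:**
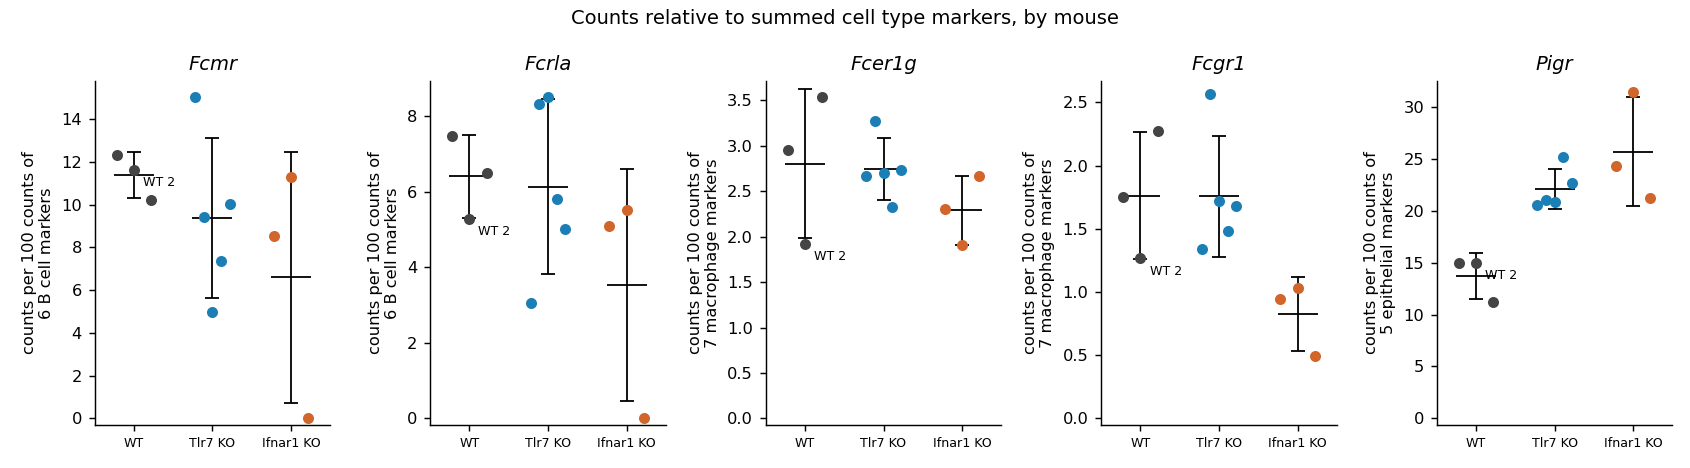
Counts of 5 genes per 100 counts of summed markers of B cells, macrophages or epithelium (linear vertical axes from 0) in each mouse, with the mean and SD as bars (n = 3, 5 and 3). *Fcmr*, *Fcrla* and *Fcer1g* overlap between groups, *Fcgr1* is lowest in *Ifnar1* KO, and *Pigr* is higher in both knockouts.

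Among 10 other Fc receptor and Fc receptor-like genes, 8 were in the table and 6 were tested. In *Tlr7* KO 3 were lower and 1 higher, and in *Ifnar1* KO 4 were lower and 1 higher. *Fcrl1* (-3.54 in *Tlr7* KO and -4.49 in *Ifnar1* KO) and *Fcer2a*, the low-affinity IgE receptor of B cells (-3.18 and -4.67), were lower in both, with -4.16 and -4.01 in *Tlr7* KO without *Tlr7* KO 2 and -5.21 and -5.56 in *Ifnar1* KO without *Ifnar1* KO 2. *Fcrl5*, a receptor of B and plasma cells, was lower in *Tlr7* KO (-2.89, lost without WT 1 at adjusted p = 0.0507), and in *Ifnar1* KO, where no mouse had over 1 count, it was at least 9.78-fold lower, taking 3 counts per library. *Fcrl5* also passed the filter through its WT counts (11 to 50 per mouse), which favours a call of lower. *Trim21*, a cytosolic antibody receptor and Sjögren autoantigen, was lower in *Ifnar1* KO (-1.49, adjusted p = 0.0363) and had -0.67 (adjusted p = 0.0948) in *Tlr7* KO, where it was called without WT 2 (-0.96, adjusted p = 0.00431). *Fcer1a*, the IgE-binding chain with which *Fcer1g* pairs on mast cells, had at most 4 counts in any mouse and was not tested. This list had medians of -1.78 in *Tlr7* KO and, in *Ifnar1* KO, -2.99 (-2.39 with *Fcrl5* at its bound).

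Signalling genes below the receptors were mostly lower. Of 13 activating genes, 11 were lower in *Tlr7* KO (median -1.47) and 10 in *Ifnar1* KO (median -2.31), and none was called higher. *Syk*, the kinase that the γ chain recruits, had -2.19 (adjusted p = 0.00233) and -2.61 (adjusted p = 0.0222). *Btk* (-2.45 and -3.25), *Vav1* (-1.95 and -2.98) and *Pik3cd* (-1.82 and -2.74), which also act below the antigen receptors of lymphocytes, were among the 4 largest changes of the list in each comparison with WT. *Tyrobp*, which encodes an adaptor related to the γ chain, had -0.84 and -2.07. In *Tlr7* KO the calls of *Tyrobp* and *Lcp2* were lost without WT 1 (adjusted p = 0.107 and 0.0768) or WT 3 (0.0965 and 0.0511), and that of *Tyrobp* also without *Tlr7* KO 1, 3 or 4. Without *Ifnar1* KO 2, *Btk* had -4.26 and *Vav1* -3.87 against WT. Between the knockouts, *Tyrobp* (-1.21, adjusted p = 0.0425) and *Lcp2* (-1.54, adjusted p = 0.0364) were lower in *Ifnar1* KO, as *Fcer1g* was, and both lost the call when any mouse other than *Ifnar1* KO 2 was left out. Over all 5 lists, 5 genes were called between the knockouts, 2 or 3 when any mouse other than *Ifnar1* KO 2 was left out and 12 without *Ifnar1* KO 2. Over all genes these fits called 85 to 144 and 877 genes, against 250 with all mice.

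Of 5 genes of inhibitory signalling, 4 were lower in each knockout (medians -1.32 and -2.36) and none was called between the knockouts. *Inpp5d*, which encodes the phosphatase SHIP-1 that FcγRIIb recruits, had -1.95 (adjusted p = 0.00204) and -2.86 (adjusted p = 0.0207). *Ptpn6*, encoding SHP-1, had -1.15 and -1.38, and *Dok3*, an adaptor of B cells and macrophages, -2.59 and -3.09. Of the 22 genes that edgeR called over the 5 lists in *Ifnar1* KO, 0 passed in the 4 fits in which edgeR called at most 103 genes in all (without WT 1, WT 3 or either of *Ifnar1* KO 1 and 3). Without WT 2, 33 genes of the 5 lists were called in *Tlr7* KO, against 29 with all mice, and 30 in *Ifnar1* KO, against 22.

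Antibody heavy chains supply the ligands of these receptors. Of 6 heavy chain constant genes tested, 5 were lower in *Tlr7* KO (median -2.89, or -2.54 with *Ighg3* at its bound) and 1 in *Ifnar1* KO (median -1.69). *Ighg3* passed the filter through its WT counts (8 to 26 per mouse, against at most 3 in *Tlr7* KO), which favours a call of lower. *Ighg2c* was at 28.8 to 50.3 CPM in WT, 0.0380 to 0.633 CPM in *Tlr7* KO (1 to 12 counts) and 4.77 to 24.4 CPM in *Ifnar1* KO, with -7.91 (SE 0.44, adjusted p = 3.38e-05) in *Tlr7* KO. Without *Tlr7* KO 5, *Ighg2c* had -9.07. *Ighg2b*, the other IgG2 isotype bound by FcγRIV, had -5.10 (adjusted p = 3.38e-05) in *Tlr7* KO and -1.66 (adjusted p = 0.0427, or -2.31 without *Ifnar1* KO 2) in *Ifnar1* KO. Between the knockouts both were higher in *Ifnar1* KO, by 6.21 (adjusted p = 0.00617) and 3.47 (adjusted p = 0.00360) on the log2 scale (7.37 for *Ighg2c* without *Tlr7* KO 5, and 5.23 and 2.80 without *Ifnar1* KO 2), while *Fcgr4* had -1.05 and was not called. *Ighm*, whose product *Fcmr* and *Pigr* bind, was lower in *Tlr7* KO (-2.75, adjusted p = 0.000641) and had -2.92 (SE 0.97, adjusted p = 0.0713) in *Ifnar1* KO. The *Ifnar1* KO mice differed widely in *Ighm*, from 2.68 to 85.2 CPM, so the size of that change is uncertain. Heavy chain genes resemble each other, so the split of reads among isotypes is uncertain.

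*Pigr* carries antibody that is joined by the J chain. *Igha* was at 982 to 1275 CPM in WT, 396 to 735 CPM in *Tlr7* KO and 834 to 1550 CPM in *Ifnar1* KO, and it was lower in *Tlr7* KO (-0.91, SE 0.19, adjusted p = 0.00691) and not called in *Ifnar1* KO (-0.04, SE 0.27). *Jchain* was lower in *Tlr7* KO (-1.33, adjusted p = 0.000952) and not called in *Ifnar1* KO (-0.32, adjusted p = 0.380), and it was higher in *Ifnar1* KO than in *Tlr7* KO (1.02, adjusted p = 0.0397), a call lost without *Ifnar1* KO 3 or any of the *Tlr7* KO mice (adjusted p up to 0.0924). *Pigr* was higher in both. Of the 7 partner and transport genes, 3 were lower and 2 higher in *Tlr7* KO, and 1 was lower and 1 higher in *Ifnar1* KO (medians 0.16 and 0.27). *B2m*, the partner chain of FcRn, had -1.02 (adjusted p = 0.0337) and -2.06 (adjusted p = 0.0286, or -2.67 without *Ifnar1* KO 2), and *Fcgrt* was lower in both as well. *Rab25*, a small GTPase of epithelial recycling endosomes, had 0.33 (adjusted p = 0.0439) in *Tlr7* KO and 0.65 (adjusted p = 0.0373) in *Ifnar1* KO, both called higher. In *Tlr7* KO the call of *Rab25* was lost when any mouse other than WT 2 was left out, and that of *B2m* without WT 1, WT 3 or any *Tlr7* KO mouse other than 2. *Rab17*, of the same family, was lower in *Tlr7* KO (-2.07, adjusted p = 0.00658).

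**Figure D5:**
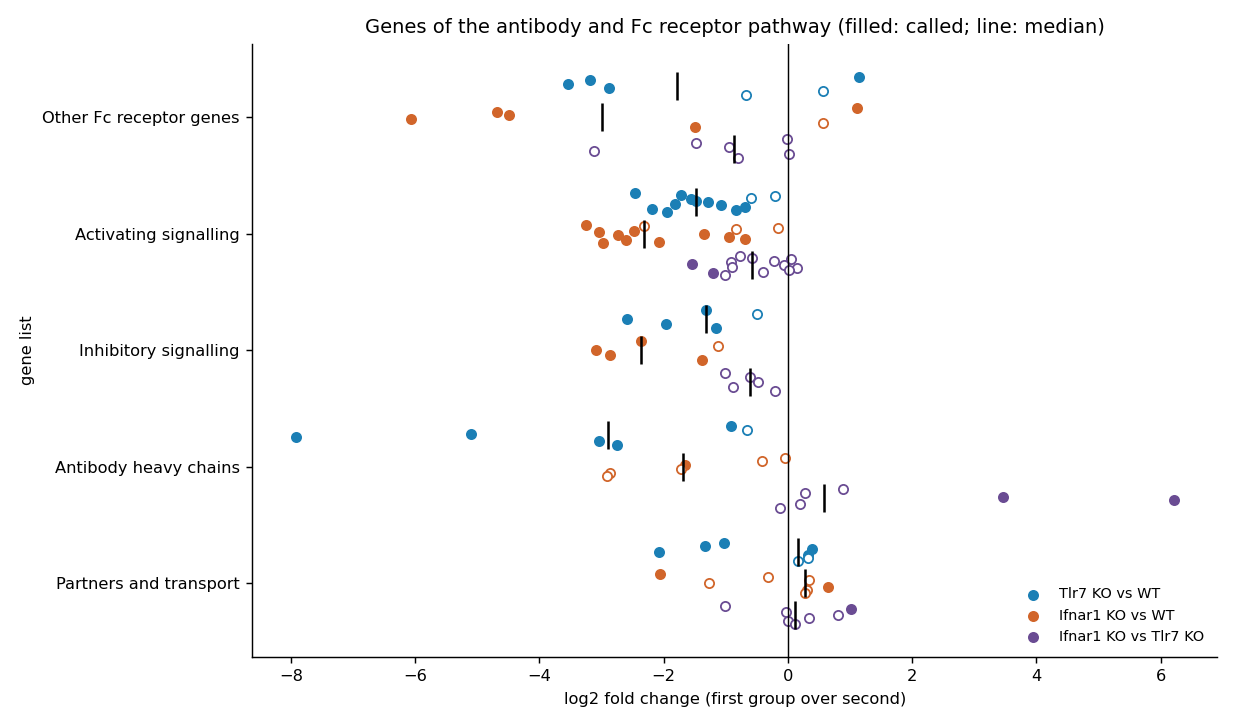
Log2 fold changes (horizontal axis) of the tested genes of 5 lists in the 3 comparisons, filled where called, with the median of each list as a black line. Heavy chain genes lie as low as -7.91 in *Tlr7* KO and up to 6.21 higher in *Ifnar1* KO than in *Tlr7* KO, while signalling genes lie to the left of 0 against WT.

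Levels of 3 of the genes were set beside those of the 5047 or 5048 genes that averaged 10 CPM or more by Pearson's r of log2 CPM over the 11 mice, as a description of shared pattern across groups that differ. *Fcer1g* was most like *Cfb* (r = 0.982), *Lgmn* (0.980), *Tapbp* (0.979), *Slfn2* (0.979) and *Ifitm3* (0.978). *Fcmr* was most like *H2-DMb2* (r = 0.978), *Rac2* (0.976), *H2-Eb1* (0.976), *Coro1a* (0.974) and the B cell marker *Cd79b* (0.974). *Pigr* was most like *Plpp1* (r = 0.981), *Hpcal1* (0.965), *Clcn3* (0.965), *Fgg* (0.964) and *Atp2a2* (0.960). These mice share groups, and the order among such close values is not reliable.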

How the data were processed

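Whole lacrimal glands of 11 male NOD mice were sequenced on an Illumina HiSeq, and groups were taken from the labels. The authors converted reads with bcl2fastq, aligned them with HISAT2 2.1.0 to mm10 and estimated expression with salmon and tximport. The main deposited table holds these estimated counts of 19058 genes as whole numbers. Although called normalized, the columns have unequal totals, from 20512315 to 28814250. A second deposited table holds counts of 39017 genes (12233586 to 16621073 per mouse), with a counting step not given in the sources used here. In it, 1 column that matched no sample was not used. Separate mice per library set the spread, and depth sets the precision of low genes.

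Estimated counts were tested with edgeR 4.0.16 (R 4.3.3, limma 3.58.1): TMM scaling, quasi-likelihood fits of the 2 groups compared, genes with a summed WT count of at least 30, Benjamini-Hochberg adjustment over all 13937 genes and an adjusted p under 0.05. CPM use TMM-scaled library sizes, and RPKM use GENCODE M21 exon lengths. Scripts were tested on simulated data. Alternatives were DESeq2 1.42.0, RLE or library-size scaling, other gene filters, a single fit of all mice, a replicate block, the second table, leaving out each mouse and an adjusted p under 0.01. Named genes were the 9 receptors, genes of 5 lists (those called with the 4 largest changes per list, or partners of a receptor) and the 5 genes nearest in pattern to *Fcer1g*, *Fcmr* and *Pigr* (log2 CPM with a prior count of 2). *Trim21* and *Rab17* and the cell type markers were named as background values. The receptors and the lists were chosen with earlier results of these data known.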

Additional observations from a re-analysis of the deposited data

Results flagged for a closer look

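*Fcrla* in *Tlr7* KO 2 was far from the other mice of its group. Its level was 3.26 CPM against 0.456 to 0.633 CPM in the other 4, a gap of 0.937 of the group's whole range, above the 95% critical value of Dixon's test (0.71 for 5 mice), and chance alone marks about 5% of groups in this way. The same mouse had the highest *Ptprc* level of its group.

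*Fcer1g* differed between the knockouts by the test of that difference itself, with a log2 fold change of -1.29 in *Ifnar1* KO relative to *Tlr7* KO (edgeR adjusted p = 0.0290), and all 3 *Ifnar1* KO mice were below all 5 *Tlr7* KO mice. Over the alternatives its adjusted p ran from 4.73e-05 to 0.147.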

How the results depend on the processing

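No direction of the 9 genes reversed under any alternative. Of the fold changes of single genes under the alternatives, 77 lost their call, 17 gained one and the others kept their side of the threshold. The activating to inhibitory ratio, which had no test, moved in all 3 groups in the second table. In *Tlr7* KO against WT, 6 of the 9 genes and 29 genes of the 5 lists were called. An adjusted p under 0.01 left 3 of the 9, and leaving out a mouse gave 3 to 9. Over all genes tested, leaving out a mouse gave 2601 to 6595 calls, against 4564 with all mice. In *Ifnar1* KO against WT, 9 and 22 were called. An adjusted p under 0.01 left 0 and 0, where the smallest edgeR adjusted p of any gene tested was 0.00789. Leaving out a mouse gave 0 to 9 and 0 to 30, and 0 to 4643 over all genes tested. All 9 had an unadjusted p under 0.05 each time, as did 3565 to 6383 of all genes tested, and DESeq2 called 9, and 3356 of all genes. Scaling by library size called 7 (*Fcgr4*, adjusted p = 0.0570, and *Fcgrt*, 0.0644, were lost), as did the second table (*Fcgr1*, 0.0546, and *Fcgrt*, 0.0501), in which *Fcgr4* had -3.39. In *Tlr7* KO, library-size scaling called 9, and the second table called 6, without *Fcgr3* (0.0506) and with *Fcgr4* (0.0488). Over all genes tested, library-size scaling and the second table called 4398 and 4009 in *Tlr7* KO, and 1339 and 2505 in *Ifnar1* KO. Between the knockouts, where 1 and 5 were called, DESeq2 called 3 and 8, library-size scaling 0 and 3, the single fit 0 and 3, an adjusted p under 0.01 left 0 and 2, and leaving out a mouse gave 0 to 4 and 2 to 12. Calls over all genes were 250, and 577, 170 and 93 with DESeq2, library-size scaling and the single fit. The second table called 0 of the 9, and 226 of all genes tested. The cause was not tested.

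With the replicate number as a block, over the mice numbered 1 to 3, the calls were 0 of the 9 and 2 of the lists in *Tlr7* KO against WT (2 and 17 for the same mice without the block, a comparison chosen after seeing the data), 0 and 0 in *Ifnar1* KO against WT, and 3 and 11 between the knockouts (0 and 2 without). Over all genes tested the block called 17, 0 and 533, and the same mice without it 1789, 2677 and 16. Same-numbered mice correlated at -0.14, -0.40 and 0.03, at -0.16, -0.44 and -0.28, and at 0.064, 0.34 and 0.26, so the numbers were not taken to pair the mice. Each *Ifnar1* KO mouse correlated best with the *Tlr7* KO mouse of its own number, a hint from the data and not from the design. Depth limits *Fcgr4*, *Fcrla* and *Fcmr* in *Ifnar1* KO 3, with 2, 0 and 0 counts.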
